A study of Homo sapiens with 6 samples.

Results

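Gene expression was measured on 6 Affymetrix arrays of 3 human ovarian cancer cell lines, and the subject here is the expression identity of the 2 arrays labelled OVCAR-3, set against the 2 arrays of ES-2 and the 2 of SKOV-3. OVCAR-3 is a line established from the ascites of an ovarian adenocarcinoma and is widely used as a model of high-grade serous carcinoma. SKOV-3 also came from ascites of an ovarian adenocarcinoma, and ES-2 is usually classed as a clear cell line. In each line 1 array held cells transfected with miR-blank, the control, and 1 held cells transfected with miR-135a-3p. All 6 arrays therefore carry a transfection, and no untransfected culture was analysed here. The sources used here do not state in which form, at what dose or for how long miR-blank and miR-135a-3p were given.

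The transfected microRNA is the 3′ arm of the miR-135a hairpin, and its sequence is shown because it is the only agent that differs between the arrays of a line. RefSeq places it at chr3:52294232-52294253 on the minus strand of GRCh38.p14. Capitals mark the seed, bases 2 to 8, the part of a microRNA that pairs with its targets.
miR-135a-3p: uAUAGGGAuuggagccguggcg

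The values were log2 signals, so a difference of 1 is a 2-fold change. Each gene was read from 1 probe set, a group of probes summarised to 1 value, and where a gene had several the brightest was kept. A gene was tested if its mean log2 signal was at least 5 over the 6 arrays or in the OVCAR-3-labelled arrays. This left 8893 genes, of which 8620 passed on the mean over all arrays and 273 only through their level in the OVCAR-3-labelled arrays. Those 273 could hardly be lower there. The counts of genes apart and of genes called in each contrast are therefore also given without them. Other counts include them unless stated. A linear model (limma) held 1 mean for each line and a term for the transfection. A gene was called apart when the OVCAR-3-labelled arrays differed from ES-2 and from SKOV-3 in the same direction, each by at least 2-fold and with a Benjamini-Hochberg adjusted p under 0.05. The "smaller difference" below is the lesser in size of these 2 differences. The table held no detection calls, and the array medians lay between 4.16 and 4.23, so signals near 4 could not be told from background. There was 1 array per line and transfection, so no condition had a replicate. The p-values rest on the spread left after the shared transfection term. That spread mixes technical variation with transfection responses that differ between the lines. Nothing in the labels says that the arrays of a line came from separate cultures. No scan date or array batch was given in the sources used here.

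Cell lines of epithelial origin differ in how much of the epithelial programme they keep. Epithelial cells are held together by tight junctions (claudins, occludin, ZO-1), adherens junctions and desmosomes, and they fill with simple keratins. Mesenchymal cells carry vimentin filaments and the repressors SNAI1, SNAI2, ZEB1 and TWIST, which silence junction genes through CACCTG and related E-box sequences. Serous ovarian carcinoma is known for PAX8 and WT1, transcription factors of the Mullerian tract, and for the surface proteins mesothelin and folate receptor alpha. OVCAR-3 is in addition known for an amplified CCNE1 gene.

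The label was checked against these genes, and in several of them the data went against it. PAX8, which OVCAR-3 is known to express, was at 4.33 with miR-blank and 4.12 with miR-135a-3p in the OVCAR-3-labelled arrays, at 4.17 and 4.81 in ES-2, and at 8.80 and 8.12 in SKOV-3. The probe set thus gave a strong signal in SKOV-3 and a signal at the array median in the arrays labelled OVCAR-3. EPCAM, an epithelial adhesion protein, read 3.94 and 4.32 in the OVCAR-3-labelled arrays. All 6 arrays lay between 3.78 and 4.32 for EPCAM, so no array showed that this probe set responds. KRT7 was at 3.82 and 4.85, below both ES-2 arrays at 6.75 and 6.37, while SKOV-3 was at 6.40 and 4.87, the last level with the higher labelled array. KRT8 was at 5.29 and 6.003 and KRT19 at 4.71 and 5.20, both overlapping the other lines. CLDN4 was below the array median at 3.81 and 3.56, against 3.87 and 4.25 in ES-2 and 5.25 and 4.23 in SKOV-3. The splicing factor ESRP1 was below it at 3.39 and 3.16, against 2.80 and 3.07 in ES-2 and 4.28 and 3.96 in SKOV-3. The epithelial transcription factor GRHL2 lay between 3.66 and 3.87 in all 6 arrays, so no array showed that its probe set responds. CLDN3 was above the array median at 6.33 and 6.30, overlapping ES-2 at 6.19 and 6.33 and SKOV-3 at 5.80 and 6.30. WT1 read 5.59 and 5.96, mesothelin (MSLN) 5.23 and 5.41, and folate receptor alpha (FOLR1) 5.44 and 5.79, none of them clear of the other lines. MUC16 and CDH1 were not analysed here.

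Some genes of the epithelial set were high. KRT18 was at 10.26 and 10.14 in the OVCAR-3-labelled arrays, with ES-2 at 10.47 and 10.37 and SKOV-3 at 9.36 and 9.95, so it did not mark the line. Occludin (OCLN) was at 8.84 and 9.05 against 5.34 and 5.59 in ES-2, and SKOV-3 was close at 8.63 and 8.30. CCNE1, cyclin E1, was at 8.36 and 8.09 against 7.36 and 6.86 in ES-2 and 7.37 and 7.80 in SKOV-3. Its differences were 1.11 ± 0.25 (SE; limma adjusted p = 0.0181) from ES-2 and 0.64 ± 0.25 (adjusted p = 0.109) from SKOV-3, so it was not apart. Without the SKOV-3 miR-135a-3p array it was called, at a smaller difference of 1.05. Without the SKOV-3 miR-blank array that difference was 0.24. Because the labelled identity and the expected genes disagree, the arrays are called "labelled OVCAR-3" throughout, and every direction below belongs to those arrays. Why the expected genes were low was not tested.

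**Figure D1:**
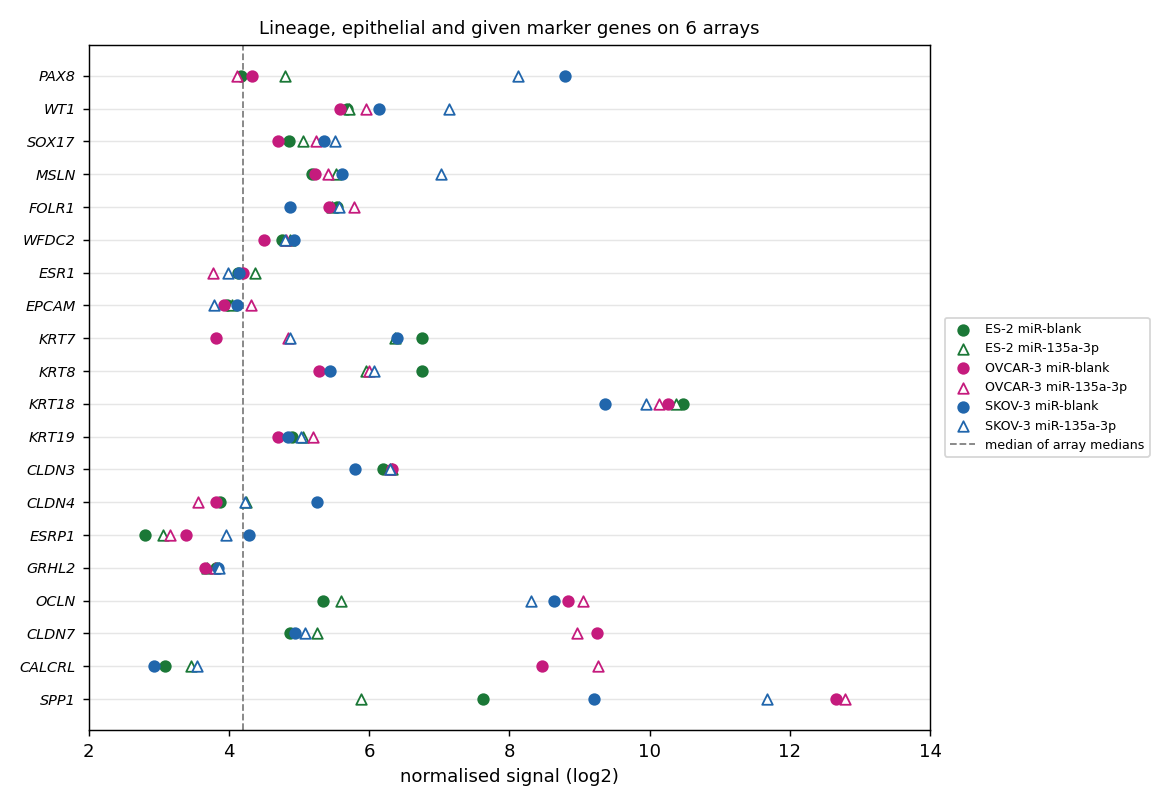
Normalised log2 signal (x axis) of genes known for ovarian or epithelial identity and of the 3 marker genes given for the line (rows), with 1 point per array; colour marks the line, filled circles miR-blank, open triangles miR-135a-3p, and the dashed line the median of the array medians, 4.202. PAX8 is high only in the SKOV-3 arrays among the 6, EPCAM is near the dashed line in all, and CLDN7, CALCRL and SPP1 have their highest points in the arrays labelled OVCAR-3.

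The 3 marker genes given for OVCAR-3 were all at their highest in the labelled arrays. CLDN7, a claudin of tight junctions, was at 9.24 and 8.97 in labelled OVCAR-3, at 4.87 and 5.26 in ES-2, and at 4.94 and 5.09 in SKOV-3. The labelled arrays stood clear of the other 4, by 4.04 ± 0.21 (SE; adjusted p = 6.56e-05) over ES-2 and 4.09 ± 0.21 (adjusted p = 8.89e-05) over SKOV-3. CALCRL, the receptor for adrenomedullin and for calcitonin gene-related peptide, was at 8.47 and 9.27, against 3.10 and 3.46 in ES-2 and 2.94 and 3.55 in SKOV-3. Its differences were 5.59 ± 0.18 (adjusted p = 2.04e-05) and 5.62 ± 0.18 (adjusted p = 3.07e-05), a 48.2-fold smaller difference. SPP1, the secreted phosphoprotein osteopontin, was at 12.66 and 12.78, against 7.62 and 5.89 in ES-2 and 9.21 and 11.68 in SKOV-3. Here the groups did not overlap, but the SKOV-3 arrays were 2.48 units apart between the transfections. SPP1 differed from ES-2 by 5.96 ± 0.85 (adjusted p = 0.00327) and from SKOV-3 by 2.27 ± 0.85 (adjusted p = 0.101), so it was not apart. It was called without either ES-2 array in turn, and also without the SKOV-3 miR-135a-3p array, when its smaller difference was 3.91. The lowest smaller difference of SPP1 over the alternatives tried was 0.63, under 2-fold. These markers were chosen with results of these arrays in view, so their direction is a description.

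Several genes followed the markers closely across the 6 arrays, as a description over 3 lines only. The genes most like CLDN7 were SPDYC and SLX4IP (Pearson r = 0.9997 each) and KIF5A, a neuronal kinesin (r = 0.9996). Most like CALCRL were TMEM35A (r = 0.9991), PRTFDC1 (r = 0.998) and MYOT (r = 0.9974). KIF5A and TMEM35A passed the filter through the labelled arrays alone. Most like SPP1 were SAGE1 (r = 0.9951), NAP1L2 (r = 0.9936) and MRPL34 (r = 0.991). SAGE1, a gene usually active in testis, was at 7.63 and 7.52 in labelled OVCAR-3, at 3.32 and 2.31 in ES-2 and at 4.50 and 7.08 in SKOV-3. Like SPP1, SAGE1 was not apart in the full comparison and was called without either ES-2 array or without the SKOV-3 miR-135a-3p array (3.36). NAP1L2 was called only without that last array, at a smaller difference of 1.26. The lowest smaller differences over the alternatives tried were 0.22 for SAGE1 and 0.29 for NAP1L2.

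The arrays of labelled OVCAR-3 correlated least with those of the other lines. Over the tested genes their Pearson correlation with each other was 0.981, as it was for the ES-2 arrays, against 0.951 for the SKOV-3 arrays. They correlated at 0.746 to 0.762 with ES-2 and at 0.787 to 0.792 with SKOV-3, whereas ES-2 and SKOV-3 correlated at 0.823 to 0.844. These correlations include the 273 genes that passed only through the labelled arrays, a filter that favours distance of those arrays. Correlations without these genes were not computed. Against ES-2 the labelled arrays were higher in 744 genes (8.37% of those tested) and lower in 746 (8.39%). Against SKOV-3 they were higher in 545 (6.13%) and lower in 772 (8.68%). Against the mean of both lines they were higher in 566 (6.36%) and lower in 689 (7.75%). Over the 8620 genes that passed on the mean, 1420 were called against ES-2, 1255 against SKOV-3 and 1195 against the mean of both. Over all 8893 genes these counts were 1490, 1317 and 1255. The contrasts share the labelled arrays and are not independent of each other.

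Of the 8893 genes, 342 were apart and higher in labelled OVCAR-3 (3.85%) and 405 were apart and lower (4.55%). Without the 273 genes that entered through the labelled arrays alone, the counts were 290 higher and 405 lower. Measured the same way on those 8620 genes, ES-2 had 254 genes higher and 243 lower than both other lines, and SKOV-3 had 256 higher and 98 lower. The median smaller difference was 1.48 for the higher genes and -1.79 for the lower genes. A change of at least 8-fold from both lines was found in 40 higher and 78 lower genes, and of at least 16-fold in 16 and 29. Of the higher genes 302 were protein-coding, and of the lower genes 395. In 47 of the higher genes both other lines lay below the array median, and in 114 of the lower genes labelled OVCAR-3 did, so these folds rest on a signal near background on 1 side. Just inside the 2-fold limit lay a gene at 1.001 (smaller difference), and 27 genes past 2-fold in both contrasts (9 higher, 18 lower) missed the p threshold, SPP1 and KRT7 among them.

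**Figure D2:**
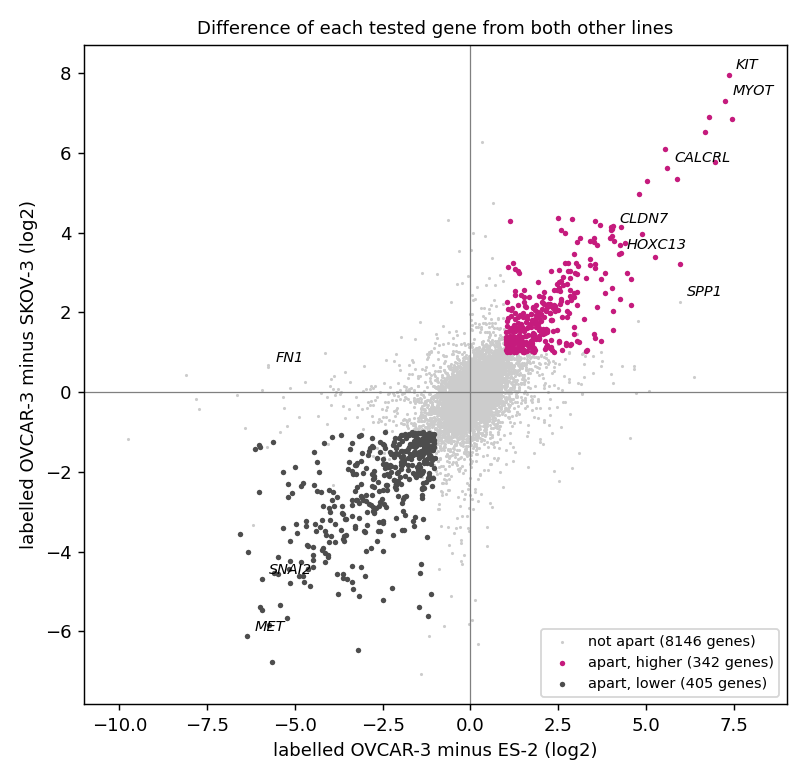
Each point is 1 tested gene, plotted by the difference of labelled OVCAR-3 from ES-2 (x axis, log2) and from SKOV-3 (y axis, log2). The 342 genes apart and higher fill the upper right and the 405 apart and lower the lower left; SPP1 and FN1 are examples of genes that were not apart.

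The genes that stood highest above both lines mostly had signals near or below the array median in the others. KIT, the receptor for stem cell factor, was at 11.95 and 11.88 in labelled OVCAR-3, at 4.88 and 4.26 in ES-2 and at 4.01 and 3.90 in SKOV-3. Its smaller difference, 7.35 ± 0.20 (adjusted p = 1.62e-05 against ES-2 and 1.89e-05 against SKOV-3), was a 163-fold change. MYOT, a protein of the muscle Z-disc, was at 9.60 and 10.90, while the other 4 arrays lay between 2.81 and 3.08. MYOT was also 1.30 higher with miR-135a-3p than with miR-blank within labelled OVCAR-3.

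RGS8 and RGS16, which shorten signalling by G proteins, were both apart. RGS8 was at 10.84 and 10.55 against 3.79 and 4.01 in ES-2 and 3.84 and 3.77 in SKOV-3, a 111-fold smaller difference. RGS16 was at 10.51 and 10.55 against 5.55 and 5.45 and against 5.39 and 5.07, a 32.7-fold smaller difference. MAP2K6, a kinase that activates p38, was at 10.51 and 10.67 against 3.42 and 3.84 in ES-2 and 5.18 and 4.44 in SKOV-3 (55-fold). ERO1B, an oxidase that forms disulfide bonds in the endoplasmic reticulum, was at 10.78 and 11.08 against 4.91 and 5.20 and against 5.78 and 5.37 (40.9-fold). In each of these 4 genes every labelled array was above all others by more than 4 units.

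A few of the highest genes are known from the germ line or the embryo. TEX11, a gene of meiosis in the testis, was at 9.19 and 9.26, with the other 4 arrays between 2.34 and 2.78. LIN28A, an RNA-binding protein of embryonic stem cells that blocks let-7 processing, was at 7.96 and 7.30, with the others between 3.31 and 3.76. TEX11, LIN28A, PLBD1 (7.52 and 7.42) and FGF14 (7.28 and 7.03) passed the filter only through the labelled arrays, so they could differ in 1 direction only. The smaller differences of GPRIN3, PRTFDC1 and TMEM88 were 5.55, 4.803 and 4.002.

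The genes that stood lowest were strongly expressed in both other lines. MET, the receptor for hepatocyte growth factor, was at 3.67 and 3.65 in labelled OVCAR-3, at 10.04 and 10.003 in ES-2 and at 10.03 and 9.52 in SKOV-3. Its differences were -6.36 ± 0.19 (adjusted p = 1.91e-05) and -6.11 ± 0.19 (adjusted p = 3.07e-05), a 69.2-fold smaller difference. OSMR, the oncostatin M receptor, was at 3.78 and 3.03 against 9.10 and 9.20 and against 9.25 and 9.26. TFPI2, a secreted inhibitor of serine proteases, was at 4.21 and 4.63 against 10.33 and 9.81 and against 11.25 and 11.11. The labelled arrays were below 5 for all 3 genes, and no array of another line was below 9.

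The lower genes included proteins of the cytoskeleton. VIM, vimentin, was at 5.08 and 5.54 against 10.73 and 10.85 in ES-2 and 9.60 and 10.13 in SKOV-3, and its 3 probe sets all gave differences of at least 4.55 below both lines. PLS3, an actin bundler, was at 5.07 and 3.99 against 10.38 and 10.53 and against 10.23 and 9.78. DST, dystonin, which links filaments to adhesion sites, was at 4.10 and 4.23 against 8.88 and 9.22 and against 9.07 and 8.45.

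Others of the 15 lowest genes encode surface or secreted proteins. CD47, a signal against phagocytosis, was at 5.16 and 3.49 against 9.05 and 9.15 in ES-2 and 8.71 and 9.15 in SKOV-3. ANPEP, aminopeptidase N, was at 4.63 and 4.83 against 10.37 and 10.28 and against 8.53 and 9.98. CXCL8, the chemokine interleukin-8, was at 3.21 and 3.53 against 8.95 and 8.23 and against 10.39 and 7.66. CD47 and PLS3 were also lower with miR-135a-3p than with miR-blank within labelled OVCAR-3, with differences of -1.67 and -1.08. The smaller differences of the remaining genes in this set were -5.38 for the transcription factor NFIB, -5.33 for the adhesion protein CLMP, -4.78 for HIVEP2 (1 of its 2 probe sets; the dimmer set gave -0.24 to -0.47), -4.73 for the kinase PLK2 and -4.58 for CDA, cytidine deaminase.

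**Figure D3:**
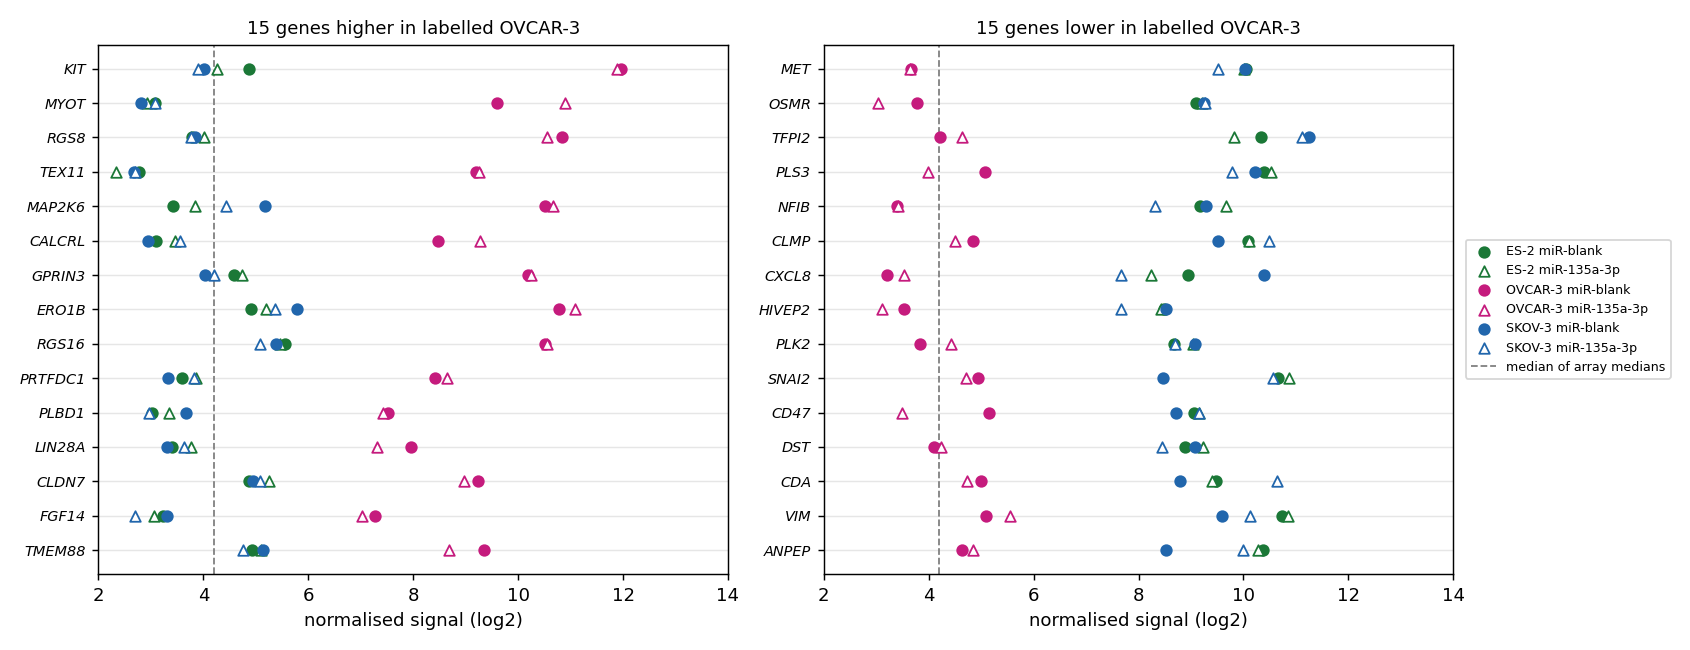
Normalised log2 signal (x axis) of the 15 protein-coding genes with the largest smaller difference above (left) and below (right) both other lines, 1 point per array, with colours for lines, filled circles for miR-blank and open triangles for miR-135a-3p. In every row the labelled OVCAR-3 points lie to 1 side of all other points, and the dashed line at 4.202 is the median of the array medians.

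The sets of genes described next were 25 lists of known function. A listed gene went untested either because no named probe set stood for it or because it was too dim. Of the 38 matrix genes, for example, 14 had a named probe set, and of the 38 interferon and antigen presentation genes 15. Counts of list genes apart from both lines stand beside the 3.85% higher and 4.55% lower over all tested genes. Counts against ES-2 alone stand beside 8.37% higher and 8.39% lower, and counts against SKOV-3 alone beside 6.13% higher and 8.68% lower. The median differences of the lists, given from ES-2 first, stand beside medians of 0.05 from ES-2 and 0.01 from SKOV-3 over all genes.

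Of 48 junction and polarity genes, 23 were tested, 3 of them only through the labelled arrays. In labelled OVCAR-3, 7 were higher than in both lines and 1 was lower, with medians of 0.93 and 0.26. Against ES-2 alone 11 were higher and 1 lower, and against SKOV-3 alone 7 were higher and 5 lower. TJP1, the scaffold ZO-1 of tight junctions, was at 11.25 and 11.15 against 8.53 and 8.89 in ES-2 and 9.39 and 8.87 in SKOV-3. JUP, plakoglobin, which anchors cadherins, was at 8.21 and 8.08 against 5.48 and 5.60 and against 6.47 and 6.07. CGN, cingulin of the tight junction plaque, was at 6.67 and 6.72 against 4.71 and 4.79 and against 5.33 and 5.23. The polarity gene LLGL2 was higher by a smaller difference of 1.34, and ESRP2, a splicing regulator of epithelial cells, by 1.29. LSR, a receptor at tricellular junctions, was higher by 1.46. The calls of LSR, LLGL2 and ESRP2 depended on single arrays: LSR was lost without either labelled array (adjusted p = 0.109 and 0.0541), LLGL2 without either labelled array or the SKOV-3 miR-135a-3p array (0.82), and ESRP2 without the labelled miR-blank array (0.94). The count of higher members was 4 without the labelled miR-blank array and 9 without the SKOV-3 miR-blank array. DSC2, a cadherin of desmosomes, was the lower member, at 3.98 and 4.17 against 5.30 and 5.74 in ES-2 and 8.43 and 8.78 in SKOV-3. Of the 7 higher members, CLDN7 was the furthest from both lines.

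The windows around the start sites of CLDN7, JUP and TJP1 are shown because these junction genes were apart and held matches to an E-box, the core letters bound by SNAI2 and its relatives. The motif searched was CACCTG on either strand, and a match on the other strand reads CAGGTG. Each runs from 250 bases before to 50 after the start site, 5′ to 3′ on the gene's strand, with matches in capitals, from RefSeq (GRCh38.p14). CLDN7 is at chr17:7262429-7262728, JUP at chr17:41785927-41786226 and TJP1 at chr15:29969000-29969299, all on the minus strand.
CLDN7: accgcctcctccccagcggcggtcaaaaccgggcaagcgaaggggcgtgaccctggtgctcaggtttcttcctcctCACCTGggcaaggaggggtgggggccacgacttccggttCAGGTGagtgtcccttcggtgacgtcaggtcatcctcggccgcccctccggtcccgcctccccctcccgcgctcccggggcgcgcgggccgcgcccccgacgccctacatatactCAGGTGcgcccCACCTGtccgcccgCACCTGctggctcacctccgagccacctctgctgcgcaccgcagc
JUP: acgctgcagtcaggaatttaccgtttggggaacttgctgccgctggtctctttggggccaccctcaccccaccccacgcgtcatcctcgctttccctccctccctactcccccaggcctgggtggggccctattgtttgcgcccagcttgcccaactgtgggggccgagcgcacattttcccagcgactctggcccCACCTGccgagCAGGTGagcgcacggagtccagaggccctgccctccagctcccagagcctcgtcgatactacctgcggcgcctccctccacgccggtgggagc
TJP1: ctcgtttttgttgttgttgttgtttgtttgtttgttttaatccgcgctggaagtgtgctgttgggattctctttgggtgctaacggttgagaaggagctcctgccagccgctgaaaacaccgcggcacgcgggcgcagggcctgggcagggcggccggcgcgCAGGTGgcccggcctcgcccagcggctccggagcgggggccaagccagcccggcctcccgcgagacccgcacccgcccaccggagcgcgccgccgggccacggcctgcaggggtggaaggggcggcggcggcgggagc
The CLDN7 window held 5 matches, starting 174, 135, 20 and 9 bases before the start site and at base 6 after it. The JUP window held 2, starting 54 and 43 bases before it, and the TJP1 window 1, starting 88 bases before it. CLDN7, JUP and TJP1 each have other annotated start sites, whose windows held 0 matches, and the windows of LSR and CGN held 0.
Of the 35116 windows in all, 20.6% held at least 1 match, 3.49% at least 2 and 0.094% at least 5. The share was 20.8% for windows of the higher genes, 19.1% for the lower genes, 18.6% for all tested genes and 52% (13 of 25 windows) for the tested junction genes. It was 30% (3 of 10 windows) for CLDN7, JUP, TJP1, LSR and CGN; windows of LLGL2 and ESRP2 were not analysed here. A match is only a run of letters, and binding was not measured.

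Among mesenchymal genes and repressors of epithelial genes, 17 of 32 were tested, and 8 were lower than in both lines and 1 was higher. The medians were -1.75 from ES-2 and -1.30 from SKOV-3. SNAI2, the repressor Slug, was at 4.94 and 4.70 in labelled OVCAR-3, at 10.66 and 10.87 in ES-2 and at 8.47 and 10.57 in SKOV-3, lower at a smaller difference of -4.70 ± 0.52 (adjusted p = 0.000411 and 0.0014). CD44, the hyaluronan receptor, was at 2.74 and 3.09 against 8.07 and 8.05 and against 6.90 and 7.42. LOX, which crosslinks collagen, was at 4.79 and 5.05 against 10.81 and 10.99 in ES-2 and 6.23 and 6.37 in SKOV-3, so most of its distance was to ES-2. AXL, TWIST2, TPM1 and FSTL1 were also lower. FSTL1 lost its call without the ES-2 miR-135a-3p array or either labelled array, TWIST2 without the ES-2 miR-blank array (-1.52) or the labelled miR-135a-3p array (-1.16), and TPM1 without the labelled miR-blank array. TPM2, a tropomyosin, was the higher member, at a smaller difference of 1.02, and was lost without the miR-blank array of labelled OVCAR-3 (0.81) or of SKOV-3 (0.89). The count of lower members was 6 to 8 when arrays were left out. Not all of the set was low: the repressor ZEB1 was at 6.86 and 6.86 against 7.26 and 7.45 and against 6.77 and 7.26, and was not apart. FN1, fibronectin, was at 4.41 and 6.63, far below ES-2 at 11.20 and 11.34 but overlapping SKOV-3 at 5.04 and 4.75.

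Few keratins could be tested. Of 13 simple epithelial keratins, 9 had a named probe set and 4 were tested, with medians of -1.33 and -0.71. None was higher. KRT80 was lower, at 4.55 and 5.08 against 6.85 and 6.67 in ES-2 and 8.74 and 7.78 in SKOV-3. Of 37 genes of the ovarian and Mullerian lineage, 18 were tested and 2 were higher and 2 lower, with medians of 0.01 and -0.10. MEIS1, a partner of HOX proteins, was higher by 1.79, and MEIS2 of the same family was lower at -1.32 (1 of 2 probe sets; the dimmer set gave -0.519 and -0.215). ARID3A was higher by 1.08, and GATA6, a transcription factor of endoderm and ovary, was lower at -1.89. The calls of 3 of these 4 genes rested on single arrays: ARID3A was lost without the ES-2 or the labelled miR-blank array, GATA6 without the labelled miR-blank array, and MEIS2 without either labelled array or the SKOV-3 miR-135a-3p array. Without the labelled miR-blank array 1 was higher and 0 lower.

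Receptor tyrosine kinases, the surface receptors of growth factors, were apart in both directions. Of 42, 23 were tested, with 2 higher and 5 lower and medians of -0.02 and -0.07. Beside KIT, the FGF receptor FGFR2 was higher, at 8.09 and 7.65 against 3.63 and 4.66 in ES-2 and 5.32 and 4.77 in SKOV-3. Beside MET, EGFR was lower, at 4.46 and 4.64 against 9.67 and 9.79 and against 9.29 and 8.71. AXL was at 5.84 and 5.75 against 11.01 and 10.86 and against 9.44 and 9.59. IGF1R and EPHA2 were lower at smaller differences of -1.81 and -1.30. The EPHA2 call was lost without the labelled or the SKOV-3 miR-135a-3p array (-0.87 and -0.74).

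The HOX genes that were apart were all higher. HOX genes encode homeodomain factors that set position along the body axis, and they lie in 4 clusters. Of 39 listed, 20 were tested, all passing on the mean over the 6 arrays, and 8 were higher in labelled OVCAR-3 and none lower, with medians of 0.64 and 0.84. HOXC13 was at 9.38 and 9.23 against 4.90 and 5.24 in ES-2 and 5.61 and 6.07 in SKOV-3, higher by a smaller difference of 3.46 ± 0.20 (adjusted p = 4.95e-05 and 0.000135). HOXC12 was at 9.05 and 9.06 against 5.97 and 5.98 and against 5.84 and 5.96. HOXC10 was at 9.10 and 8.68 against 5.18 and 4.92 and against 5.65 and 6.17. HOXB5, HOXB3, HOXA2 and HOXB13 were higher by 2.06, 1.88, 1.80 and 1.42. HOXB6 was higher by 1.44, with a call lost without the ES-2 miR-135a-3p array or either labelled array. The count was 7 or 8 whichever array was left out. The HOXC genes neighboured each other in a run of 5 tested genes that were all higher: HOXC13-AS, HOXC13, HOXC12, HOTAIR and HOXC10. The run holds tested genes only. HOXC11 of the same cluster was too dim to test, at 4.80 and 4.12 in labelled OVCAR-3 and between 4.10 and 4.41 in the other 4 arrays. HOTAIR, a long noncoding RNA of that cluster, was at 5.50 and 5.46 with the other 4 arrays between 3.11 and 3.71. HOTAIR passed the filter through the labelled arrays alone and so could differ in 1 direction only. Antisense and overlapping genes of these clusters can share probes, so their values may not be separate measurements.

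In the Wnt, Notch and Hedgehog list 28 of 46 genes were tested, 5 were higher and 3 lower, with medians of 0.49 and 0.09. LGR4, a receptor for R-spondins, was at 9.78 and 9.93 against 5.91 and 5.72 in ES-2 and 7.74 and 6.74 in SKOV-3. RNF43, a ligase that removes Frizzled receptors and is opposed by R-spondins, was at 7.38 and 7.23 against 4.31 and 4.79 and against 4.62 and 4.58. PTCH1, the Hedgehog receptor, was higher by 1.55, and DLL3, an inhibitory Notch ligand, by 1.02, with a call lost without either labelled array or the SKOV-3 miR-blank array. The Notch ligand JAG1 was higher by 1.95, but its call was lost without the ES-2 miR-135a-3p array or the labelled miR-blank array, when the smaller difference was 1.201, and its value was 1.27 without the SKOV-3 miR-blank array. The JAG1 call was also lost with no filter (adjusted p = 0.0559), with cyclic loess (0.0509) and with all probe sets (0.0681). Of the list 3 were higher without the labelled miR-blank array. The members lower than both lines were the Frizzled receptor FZD6 at -2.61, the Hedgehog effector GLI3 at -2.05 and DKK3 at -1.80.

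**Figure D4:**
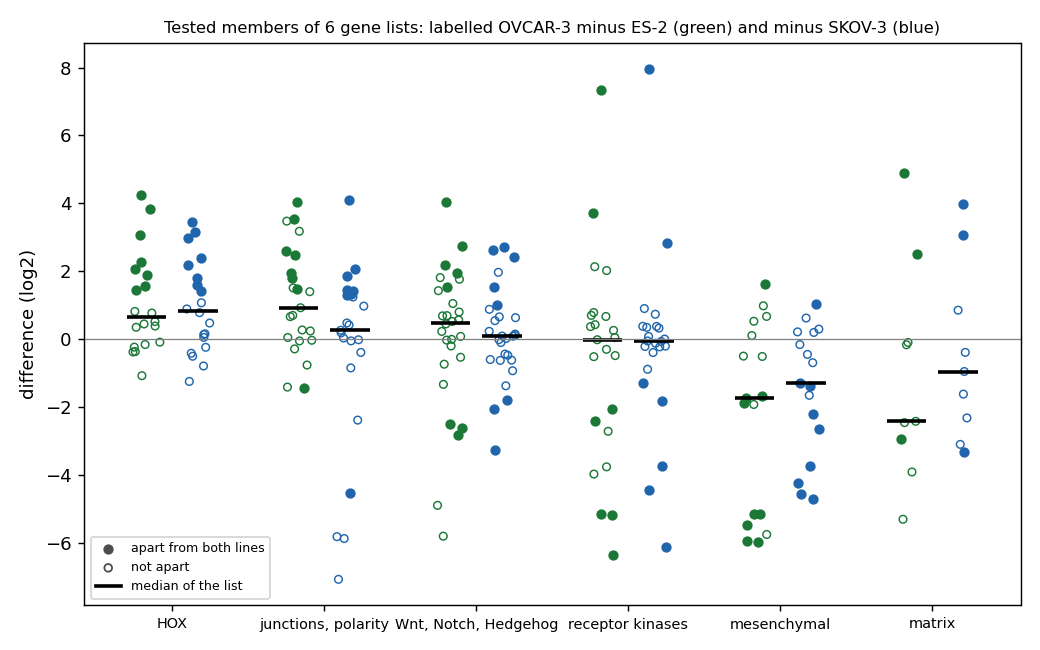
Difference of labelled OVCAR-3 from ES-2 (green) and from SKOV-3 (blue) on the log2 scale (y axis) for the tested members of 6 lists (x axis); filled points are apart from both lines, open points are not, and bars are list medians. Each gene gives a green and a blue point; the 8 HOX genes apart lie above 0 in both colours, and 8 of the 9 mesenchymal genes apart lie below it in both.

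Of 38 matrix genes, 9 were tested, 5 of them lower than in ES-2 and 2 lower than in SKOV-3. Labelled OVCAR-3 was above both lines in 2 and below both in 1, with medians of -2.42 and -0.95. NID1, nidogen of the basement membrane, was at 10.21 and 10.33 against 6.08 and 4.69 in ES-2 and 6.12 and 6.49 in SKOV-3. MFAP2 was higher by 2.52, and the proteoglycan VCAN was lower at -2.93 (1 of 2 probe sets; the dimmer set gave -1.16 and -0.66). Among the osteopontin receptors and SIBLING proteins, the family of bone matrix proteins that includes SPP1, 3 of 15 were tested, with medians of 3.41 and 2.27, and 1 was higher and 1 lower. CD44, a receptor of osteopontin that is also on the mesenchymal list, was the lower member, at a smaller difference of -4.25. IBSP, bone sialoprotein and a member of that family, was at 5.12 and 6.95 in labelled OVCAR-3, with all other arrays between 2.48 and 2.95. IBSP, the higher member, passed the filter through the labelled arrays alone. Of the calcitonin family 5 of 10 genes were tested, with medians of -0.29 and -0.165, and CALCRL alone of these was apart. The receptor partners RAMP1 (5.08 and 5.25) and RAMP2 (5.07 and 4.70) and the ligand adrenomedullin (ADM; 6.38 and 6.68) were not apart, with SKOV-3 above labelled OVCAR-3 for ADM at 6.83 and 7.30.

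Cancer genes varied in small numbers. Of 36 oncogenes, 21 were tested, none was higher and 4 were lower, with medians of -0.14 and -0.15. Beside MET and EGFR these were CDK6, a kinase that drives cells into S phase, at 4.81 and 5.35 against 8.67 and 7.97 and against 7.96 and 7.58, and BCL2 at a smaller difference of -1.83. The BCL2 call was lost without the labelled miR-135a-3p array, and its value fell to -1.02 without the SKOV-3 miR-135a-3p array. Of 36 tumour suppressors, 16 were tested, with medians of 0.17 and 0.09, and APC, which restrains beta-catenin, was higher, at 8.82 and 8.35 against 6.09 and 6.28 and against 6.35 and 6.49. Of 25 genes around CCNE1 on chromosome 19, 13 were tested, with medians of 0.60 and -0.06. NUDT19 was higher at 8.93 and 8.60 against 7.69 and 7.59 in ES-2 and 4.56 and 4.42 in SKOV-3, and its call was lost without the labelled miR-blank array (1.03). TSHZ3 was lower at -1.35, and at -0.82 without the labelled miR-blank array or the SKOV-3 miR-blank array, when its call was lost.

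The remaining lists held few changes. Of 34 genes of drug metabolism, 10 were tested, with medians of 0.36 and 0.37, and the glutathione transferases GSTA4 (2.52) and GSTM4 (1.27) were higher, with the call for GSTM4 lost without the miR-blank array of ES-2 or of labelled OVCAR-3. Of 32 TGF-beta and BMP genes, 13 were tested, with medians of -0.40 and -0.13; the inhibitor SMAD6 was higher by 2.49, and LTBP1, which stores TGF-beta in the matrix, was lower at -1.08 with a call lost without either ES-2 array or the labelled miR-135a-3p array. Of 37 cancer-testis genes, 7 were tested, with medians of 0.07 and 1.19. DDX43 was higher, at 5.03 and 5.44 with the others between 2.56 and 2.76, but it passed the filter through the labelled arrays alone, and none of the members that passed on the mean over all arrays was apart. Of 16 clustered protocadherins, 10 were tested, with medians of -0.15 from ES-2 and -3 from SKOV-3, and 9 of the 10 were lower than in SKOV-3. PCDHB5 was lower than in both lines, at 3.57 and 3.33 against 6.24 and 7.04 and against 9.71 and 10.13, and so was PCDHB13 at -2.25, whose call was lost without the labelled miR-135a-3p array and whose value was -1.45 without the ES-2 miR-135a-3p array. None of 9 tested genes of the interferon response and antigen presentation (of 38 listed; medians of 0.50 and -0.42), and none of 16 ribosomal protein genes (of 30; medians of -0.25 and 0.10), was apart. None of the 16 listed serpins was analysed here.

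Markers of other cell types gave no list that was higher in labelled OVCAR-3, and in such bulk RNA fewer cells of a type and less RNA per cell cannot be told apart. None of the tested members was apart in the endothelial (3 tested of 12), leukocyte (3 of 12), fibroblast (1 of 10), neural (2 of 12) or mesothelial (3 of 8) lists. The mean signal of the markers on the array was 4.56 to 4.60 for the 8 endothelial, 5.23 for the 5 leukocyte, 3.52 to 3.68 for the 4 fibroblast, 4.67 to 4.72 for the 6 neural and 4.57 to 4.68 for the 8 mesothelial genes in labelled OVCAR-3. In ES-2 these means were 4.97 to 5.02, 5.88 to 5.90, 3.47 to 3.64, 4.63 to 4.70 and 4.69 to 4.81. In SKOV-3 they were 4.41 to 4.55, 5.34 to 5.92, 3.48 to 4.05, 4.46 to 4.67 and 5.07 to 5.23. CD68, a lysosomal protein of macrophages that many cultured cells also express, was at 7.68 and 7.29 in labelled OVCAR-3, below ES-2 at 10.40 and 10.15 and SKOV-3 at 7.96 and 10.20. It was not apart with all arrays, and was called without either ES-2 array or without the SKOV-3 miR-blank array (-2.79). Over the alternatives tried, the smaller difference of CD68 ranged from -2.79 to -0.32.

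Neighbouring genes were sometimes apart together. There were 13 runs of at least 3 neighbouring tested genes that were all apart in 1 direction, 8 higher and 5 lower. How many runs the shares of 3.85% and 4.55% would give without regard to position was not computed, so this count is a description. The runs were not counted again without the genes that passed through the labelled arrays alone. On chromosome 1, GLUL, RGS16, LINC01686, RGS8 and NPL were all higher, with smaller differences from 1.22 to 6.79. LINC01686 passed the filter through the labelled arrays alone, and the call for GLUL was lost without the miR-blank array of ES-2 (0.94) or of labelled OVCAR-3 (0.98). Also on chromosome 1, NID1, GPR137B, ERO1B and EDARADD were higher, by 1.34 to 5.35. On chromosome 10, ARHGAP21, PRTFDC1, THNSL1 and GPR158 were higher, by 1.37 to 4.8, and GPR158 was read from 1 of 2 probe sets, the other differing by only 0.51 and 0.73. Lower runs were DPYD, SNX7 and FRRS1 on chromosome 1, at -2.75 to -4.39, and CDK6, SAMD9 and SAMD9L on chromosome 7, at -1.48 to -3.31. SAMD9, a growth suppressor, was at 3.08 and 3.17 against 8.01 and 8.19 in ES-2 and 6.44 and 6.44 in SKOV-3. The HOXC run on chromosome 12 is given above. In each of the other 7 runs the smallest member lay at 1 to 1.44 in size and lost its call when at least 1 array was left out. BTBD3 and TSHZ2 also lost it with quantile normalisation (0.984 and 0.9997) and with cyclic loess (0.949 and 0.969). The higher ones held HOXB-AS3, HOXB5 and HOXB6 on chromosome 17, a microRNA gene with HOXA11-AS and HOTTIP (which passed the filter through the labelled arrays alone) on chromosome 7, and SLX4IP, JAG1 and BTBD3, and TSHZ2, ZNF217 and BCAS1, on chromosome 20. The lower ones held ANTXR2, PRDM8 and FGF5 on chromosome 4, and MTCL1, ANKRD12 and TWSG1, and IMPACT, KCTD1 and DSC2, on chromosome 18.

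The share of genes apart differed between chromosomes. On chromosome 18, 15 of 125 tested genes were lower (12%), and 3.2% were higher. On chromosome 3, 9.17% were lower (41 of 447), and on chromosome 8, 8.22% (25 of 304), against 2.24% and 0.987% higher. Chromosomes 5 and 6 were close to these, with 7.81% and 7.21% lower against 3.53% and 3.95% higher. The largest share of higher genes was on chromosome X, 6.87% (18 of 262), with 5.34% lower. On chromosome 22, 5.81% were higher (14 of 241) and 0.415% lower, with median differences over its tested genes of 0.41 from ES-2 and 0.27 from SKOV-3. On chromosome 19, 0.955% were lower (7 of 733). The medians of chromosome 18 were -0.11 and -0.34. Copy number was not measured, so its part in these shares was not tested.

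**Figure D5:**
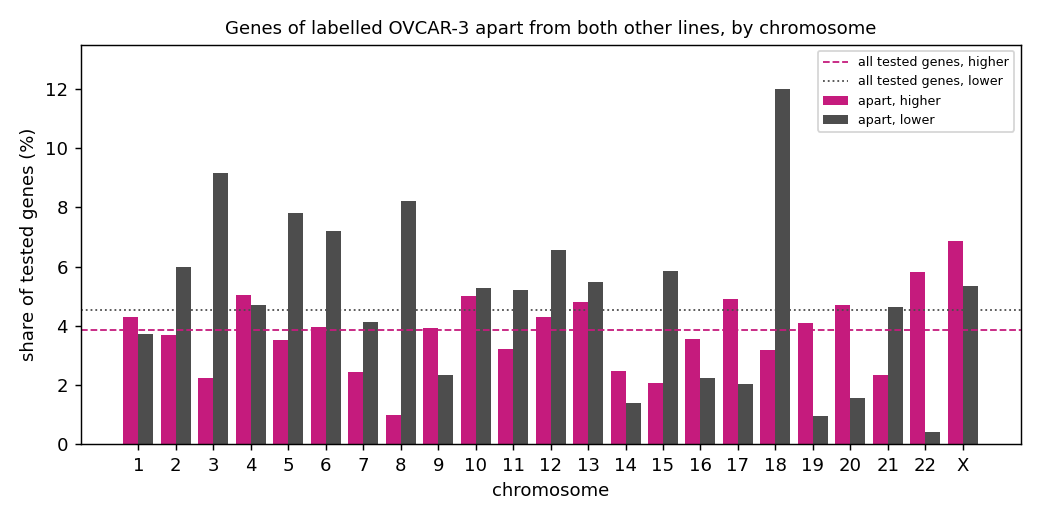
Share of tested genes on each chromosome (x axis) that were apart from both other lines, in percent (y axis), higher (magenta bars) or lower (dark bars) in labelled OVCAR-3. Dashed and dotted lines mark the shares over all tested genes, 3.85% and 4.55%; chromosome 18 has the tallest bar at 12%.

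Few of the genes that set labelled OVCAR-3 apart differed by 2-fold between its own arrays. Between its 2 arrays 65 of all tested genes (0.731%) differed by at least 2-fold, with no replicate of either condition. Among the genes apart and higher 10 of 342 did so (2.92%), 8 of them higher with miR-135a-3p, and among those apart and lower 18 of 405 (4.44%), 16 of them lower with miR-135a-3p. These genes were selected for their level in the same 2 arrays, so their counts are a description. IBSP was higher with miR-135a-3p by 1.83. TIMP1, an inhibitor of matrix proteases, was at 7.63 and 5.35 in labelled OVCAR-3, a difference of -2.28, against 10.60 and 10.59 in ES-2 and 9.43 and 10.71 in SKOV-3. Its smaller difference was -3.58, and -2.12 without the labelled miR-135a-3p array or -2.37 without that of SKOV-3. BCHE, butyrylcholinesterase, went the other way, at 2.67 and 4.55, against 7.93 and 8.28 and against 7.11 and 8.30. In all 405 lower genes both labelled arrays lay below every array of the other lines, and in 340 of the 342 higher genes above every one. Over all 8893 tested genes, 1995 lay above and 1705 below in this way. The genes apart were selected on these same arrays, so their near-complete separation was largely fixed by that selection.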

How the data were processed

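The authors deposited a table of normalised log2 values for 53617 probe sets. The submitters' processing notes name Transcriptome Analysis Console 3.0, Affymetrix Expression Console 1.4 and RMA without saying what each did. RMA makes the signal distributions of arrays alike, so a change of most genes in 1 direction would be lost. The platform annotation gave 1 symbol to 16098 probe sets and none to 37519, and every symbol matched RefSeq (GRCh38.p14) by Entrez identifier. The named sets stood for 14884 symbols, and 779 symbols had more than 1 set.

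The 8893 genes were fitted in R 4.3.3 by limma 3.58.1, using lmFit and then eBayes with two-sided tests, with a mean per line and transfection as a block. With 6 arrays the residual degrees of freedom were 2 and the prior degrees of freedom 4.39, so much of each gene's spread was borrowed from other genes. The script was tested on simulated data. The members, lists and markers were chosen with earlier results of these data known. Named were the 15 higher and 15 lower protein-coding genes with the largest smaller difference, the markers, up to 5 list members apart from both lines, runs of 3 neighbours and the 3 genes most like each marker. Any other gene in the text was picked with its values in view. Near-identical gene families and small RNAs were counted and not named. The alternatives were other filters, normalisations, probe set rules, thresholds and fits, and leaving out each array.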

Additional observations from a re-analysis of the deposited data

How the results depend on the processing

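No called direction among 121 genes named by rule reversed under the alternatives tried, while uncalled values near 0 such as RPL19 (-0.10 to 0.04) could change sign: of 2024 values, 1852 kept their side of the threshold, 162 lost the call and 10 gained it. Without variance moderation, when only 2 residual degrees of freedom remain, 0 genes were apart and higher and 0 apart and lower. In that setting 11 were called against ES-2, 0 against SKOV-3 and 0 against the mean of both lines. At the looser threshold of an unadjusted p under 0.05 in both contrasts, 264 genes at least 2-fold higher and 291 lower were found. At any fold, 2327 genes were under that threshold against SKOV-3 and 2547 against the mean. The 342 and 405 of limma's moderated test are at an adjusted p under 0.05, so they do not match the 264 and 291 in threshold. With the labelled OVCAR-3 arrays against the other 4 as 2 groups, 563 genes were called in place of 1255 against the mean. This fit, which is outside the tally above, called 260 of the 342 higher and 275 of the 405 lower genes. Named genes it did not call included LSR (limma adjusted p = 0.16), DSC2 (0.219), NUDT19 (0.267), PCDHB5 (0.101), GPR158 (0.0738) and BCAS1 (0.0732). With all probe sets, 20477 tested, the counts were 761 higher, 634 lower, 2829 against ES-2, 2612 against SKOV-3 and 2442 against the mean. With no fold threshold they were 638, 627, 2619, 2297 and 2630, and with at least 4-fold 108, 171, 572, 453 and 446. Leaving out 1 array at a time gave 246 to 362 higher, 286 to 418 lower, 1162 to 1513 against ES-2, 910 to 1477 against SKOV-3 and 1046 to 1321 against the mean. Where an array was left out, the remaining array of that line was assumed to vary like the others. Without the transfection block 340 and 403 genes were apart, and other filters, normalisations, an intensity trend and means over probe sets gave 290 to 348 higher and 293 to 430 lower. No paired analysis was possible because the labels give no replicate numbers beyond the transfection, which is the block. With 2 arrays per line and no detection calls, small differences and signals near the array median are the least certain.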

Other observations

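Further genes, chosen after their values were seen, were apart from both lines in labelled OVCAR-3. SALL4, a transcription factor of embryonic stem cells and germ cells, was at 8.14 and 7.56 against 4.35 and 4.54 in ES-2 and 4.59 and 4.43 in SKOV-3, next to LIN28A among the higher genes. SOX4 and SOX5, high-mobility-group factors of development, were higher by smaller differences of 3.03 and 3.53. The homeobox genes IRX3 and IRX5 were higher by 2.58 and 2.46, at 9.48 and 9.41 for IRX3 with the other 4 arrays between 6.61 and 6.89. SREBF1 and SREBF2, the factors that drive fatty acid and cholesterol synthesis, were higher by 1.72 and 1.88, with the SREBF2 call lost without the labelled miR-135a-3p array.

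Some ligands and receptors, also picked with their values in view, were lower. KITLG, the ligand of KIT, was at 2.48 and 3.10 in labelled OVCAR-3, while ES-2 was at 6.13 and 6.14 and SKOV-3 at 8.46 and 7.0004, so the arrays with the highest KIT signal had the lowest KITLG signal. Epiregulin (EREG), a ligand of EGFR, was lower at -3.39 and neuregulin 1 (NRG1) at -2.46. LIFR, the receptor for leukaemia inhibitory factor, was lower at -2.64 and its ligand LIF at -2.06. The MAP kinase phosphatase DUSP5 was lower at -2.15, and DUSP4 and DUSP6 at -1.91 and -2.29, calls that were lost without either labelled array (DUSP6 was at -1.48 without the SKOV-3 miR-135a-3p array). ETS1 was lower at -2.71, and FOSL1, a factor induced by ERK, at -2.45, lost without the labelled miR-135a-3p array (-1.40) and at -1.38 without that of SKOV-3. Among surface proteins that engage immune cells, ICAM1 was lower at -4.06 and PDCD1LG2 at -1.88, the latter lost without the labelled miR-135a-3p array (-1.24). CD274 was at 3.65 and 3.74 against 8.22 and 7.82 in ES-2 and 4.61 and 6.77 in SKOV-3, a call lost without either labelled array or the SKOV-3 miR-135a-3p array (-0.84), and its smaller difference was -3.15 without the SKOV-3 miR-blank array. No hypothesis about these genes was tested.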
